A study of Homo sapiens with 6 samples.

Results

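The subunits of the respiratory chain are made from 2 genomes, and their mRNAs were examined together in 6 RNA sequencing libraries. The genes were chosen by name among protein-coding rows of the expression table: mitochondrial-encoded subunits (MT-ND, MT-CO, MT-CYB and MT-ATP genes) and nuclear-encoded subunits of complexes I to IV (NDUF subunits without the NDUFAF assembly factors, SDHA to SDHD, UQCR genes and COX4 to COX8 genes). This gave 79 of the 27009 rows, 13 of them mitochondrial and 66 nuclear. Genes were tested if 3 or more libraries reached a value of 10, which left 15076 of them, with 13 of 13 mitochondrial and 63 of 66 nuclear members among them. The 3 that did not reach it were NDUFA7, COX7A1 and COX6B2, whose values ran from 3.03 to 15.8, from 1.68 to 7.08 and from 0.00 to 8.40.

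The libraries came from Hep3B, a human liver cancer cell line, and every one of them carried a knockout of endogenous PD-L1. The vector group (3 libraries) carried the vector alone, and the nPD-L1 group (3 libraries) carried nPD-L1, a PD-L1 mutant that accumulates in the nucleus, delivered by lentivirus under a CMV promoter and kept by drug selection. The study set the groups side by side to ask how nPD-L1 alters gene expression. The study describes the sequenced samples as independent, but neither it nor the labels say whether they came from separate cultures or whether the knockout line was a single clone. The p values measure the spread between these libraries, which may be technical. CD274, the gene for PD-L1 (chr9:5450503-5470566, GRCh38), read 28.3, 38.4 and 47.8 in vector and 16.8, 19.2 and 30.9 under the nPD-L1 label (log2 fold change -0.76 ± 0.34 (SE), adjusted p = 0.338, limma). CD274 reads were thus not higher under the nPD-L1 label, and the group is called the libraries labelled nPD-L1 throughout. Whether reads of the construct were counted on CD274 was not tested, so these values do not decide the label.

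Values are normalised read counts, that is, reads on a gene divided by a size factor of the library. The libraries held 17427519 to 22253295 reads on genes, so counting error is small for nearly all members and precision is set by the spread among libraries. Of the hepatocyte markers, ALB, TTR, APOB and APOA1 lay between 0.00 and 2.89 in all 6 libraries, SERPINA1 between 7.91 and 41.4 and FGB between 962 and 1540, so 4 of the 6 hepatocyte transcripts in the table were at or near 0 in cells labelled as a liver cancer line (AFP and GPC3 were not analysed here). The summed level of 6 immune, endothelial and fibroblast markers was 53.0 to 91.9 in vector and 449 to 488 under the nPD-L1 label, and nearly all of it was COL1A1, since the other 5 markers stayed at or below 5.04. The part of these markers in the results on respiratory chain genes was not tested. In bulk RNA, fewer cells of a type and less RNA per cell cannot be told apart.

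Complex I (NADH dehydrogenase) and complex II (succinate dehydrogenase) pass electrons to coenzyme Q, complex III passes them to cytochrome c, and complex IV (cytochrome c oxidase) hands them to oxygen. Complexes I, III and IV pump protons, and complex V, the ATP synthase, uses the gradient to make ATP. The catalytic cores of complexes I, III and IV hold subunits encoded by mitochondrial DNA, which is transcribed from both strands as long polycistronic RNAs that are cut at tRNAs. All subunits of complex II come from nuclear genes scattered over the chromosomes. So do the remaining subunits of the other complexes, some of which are core subunits, and assembly of these complexes needs products of both genomes. NRF1, the ETS factor GABP and YY1 are known regulators of many of the nuclear genes.

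The mitochondrial genome is so compact that some of its genes overlap, which bears on how reads can be assigned. Below, a mitochondrial mRNA means the counts of a single gene, also where genes overlap and may share a transcript. The stretch shared by MT-ATP8 and MT-ATP6 is shown because these 2 genes had very different values; the capitals mark the start codon of MT-ATP6, and the sequence is that of the reference transcripts on the + strand (chrMT:8527-8572, GRCh38).
MT-ATP8 and MT-ATP6: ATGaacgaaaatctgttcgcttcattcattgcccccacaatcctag
This overlap is 46 bases long and takes up 22.2% of MT-ATP8. MT-ND4L and MT-ND4 share 7 bases (chrMT:10760-10766), and MT-ND6 is the only member on the - strand of the mitochondrial genome. The library kit is not stated to keep strand, and reads of overlapping genes cannot be told apart.

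For 54 of the 66 nuclear members, RefSeq gave the promoter, a window of 300 bases around the start of the gene as RefSeq places it (GRCh38.p14). The gene start of the expression table, which is the outermost start in GENCODE, fell inside 39 of these 54 windows and outside 15. Exact matches on either strand were counted for the NRF1 core CGCATGCG, the ETS motif CCGGAAG and the YY1 core AAGATGGCG, of which the latter 2 can overlap by 3 letters. The NRF1 core was found in 6 of 54 promoters (11.1%, against 2.02% of all 35116 promoters), the ETS motif in 15 (27.8% against 10.3%) and the YY1 core in 7 (13% against 1.75%). At least 1 of the 3 was found in 24 (44.4% against 13.1%). Members were given 1 window each, whereas all windows were kept for the background, which was not matched for base composition or expression. Such matches are letters in a window and not measured binding. 4 promoters are shown, with matches in capitals: COX8A, the nuclear member with the highest level per kb, COX6A1 with an NRF1 and an ETS match, SDHB with an ETS and a YY1 match, and NDUFA11, the member with the smallest p value between the groups, with no match.
COX8A (chr11:63974370-63974669, + strand): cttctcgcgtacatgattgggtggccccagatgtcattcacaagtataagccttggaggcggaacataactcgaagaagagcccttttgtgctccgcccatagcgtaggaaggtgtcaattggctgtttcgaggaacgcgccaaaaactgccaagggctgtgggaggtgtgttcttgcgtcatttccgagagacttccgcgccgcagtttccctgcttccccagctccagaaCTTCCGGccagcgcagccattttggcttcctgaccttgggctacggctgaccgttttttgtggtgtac
COX6A1 (chr12:120437863-120438162, + strand): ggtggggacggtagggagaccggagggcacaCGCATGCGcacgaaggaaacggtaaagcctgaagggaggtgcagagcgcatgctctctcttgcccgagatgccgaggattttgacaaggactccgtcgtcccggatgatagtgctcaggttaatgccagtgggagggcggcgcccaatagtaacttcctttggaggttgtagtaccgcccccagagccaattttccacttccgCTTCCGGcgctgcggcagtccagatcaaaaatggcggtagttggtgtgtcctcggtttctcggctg
SDHB (chr1:17053983-17054282, - strand): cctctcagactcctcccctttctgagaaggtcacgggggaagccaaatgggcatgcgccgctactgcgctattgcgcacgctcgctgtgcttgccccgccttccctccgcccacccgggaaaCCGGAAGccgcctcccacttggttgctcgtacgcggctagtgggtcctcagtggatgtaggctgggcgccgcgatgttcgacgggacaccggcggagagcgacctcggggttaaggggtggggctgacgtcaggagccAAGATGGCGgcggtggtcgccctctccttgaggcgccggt
NDUFA11 (chr19:5903741-5904040, - strand): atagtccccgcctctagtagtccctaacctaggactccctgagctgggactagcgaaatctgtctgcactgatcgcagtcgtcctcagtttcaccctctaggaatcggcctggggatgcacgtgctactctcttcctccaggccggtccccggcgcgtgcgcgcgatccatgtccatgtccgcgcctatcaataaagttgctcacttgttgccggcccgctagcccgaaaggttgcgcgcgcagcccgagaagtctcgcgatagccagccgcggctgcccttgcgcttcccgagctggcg

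Mitochondrial mRNAs were far more abundant than the nuclear ones. Per kb of gene length and over the 6 libraries, the median normalised count was 50699 for the 13 mitochondrial and 588 for the 66 nuclear members, a ratio of 86.2. Gene length here is that of all annotated exons of a gene merged, which can exceed the length of the expressed mRNA. It reached 14160 bases among nuclear members (SDHC) and 1812 among mitochondrial members (MT-ND5). Levels per kb can thus be understated for nuclear members, and the ratio and rankings per kb depend on this measure. The 5 highest levels per kb belonged to MT-CO2 (165624), MT-CO3 (161353), MT-CO1 (148678), MT-ATP6 (106661) and MT-ND4 (59541), which encode the 3 core subunits of complex IV, a proton channel subunit of complex V and a membrane subunit of complex I. MT-ATP8, a small complex V subunit, was the exception at 1642 per kb, and MT-ATP6 was 65.0 times higher per kb. These genes overlap over 22.2% of MT-ATP8, and how reads on shared bases were counted is not given. The count of MT-ATP8 is therefore uncertain as a measure of its mRNA level. Among complex I mRNAs of the mitochondrial genome, MT-ND5 (20200) and MT-ND6 (21893) were lowest per kb.

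**Figure D1:**
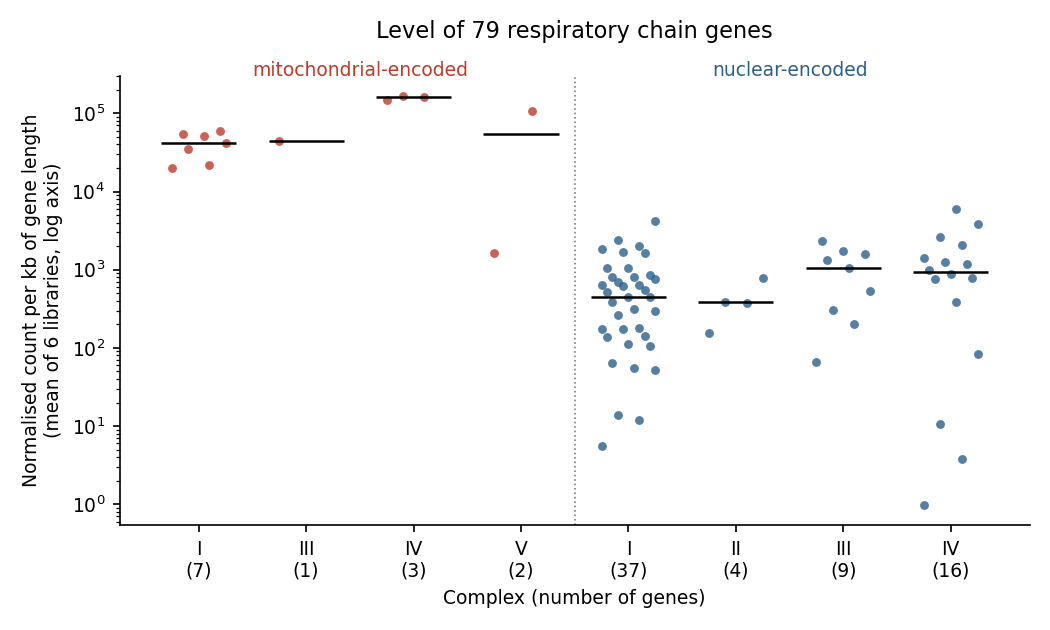
Mean level of each of the 79 respiratory chain genes over 6 libraries, as normalised counts per kb of gene length on a log axis, by complex; points are genes, black bars medians, red mitochondrial-encoded and blue nuclear-encoded. Mitochondrial mRNAs other than MT-ATP8 lie at 20200 per kb or above, and no nuclear mRNA exceeds 5899. The level of MT-ATP8 is uncertain, since the gene overlaps MT-ATP6.

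Levels of nuclear subunits spread over a wider range. COX8A (5899 per kb), NDUFS5 (4254) and COX6B1 (3880) were highest per kb, at gene lengths of 507, 548 and 936 bases. Without division by length, COX4I1, UQCRFS1 and COX7C had higher vector means (7270, 5994 and 5523) than these 3 genes (3250, 2477 and 3871). The median per kb was 450 in complex I (37 genes), 382 in complex II (4), 1039 in complex III (9) and 928 in complex IV (16). Several subunits that every complex I contains had very low values: NDUFA7 at 5.61, NDUFV2 at 11.9 and NDUFA13 at 13.9 per kb. In the GENCODE 29 annotation, whose coordinates and exon lengths equal those of the table for 79 of 79 members, NDUFA7 shares 32.3% of its exon bases with another gene on the same strand, NDUFV2 28.4% and NDUFA13 21.0%. COX8A shares 34.5% and had the highest nuclear level per kb. With both strands counted, the largest shares were those of NDUFS7 (49.1%, level 63.8 per kb), NDUFB8 (48.5%, 142), NDUFB11 (44.9%, 1844) and NDUFA1 (44.5%, 1668). The part of shared bases in these levels was not tested. Of the 66 nuclear members, 34 share some exon bases with another gene and 6 share at least 20% on the same strand, and how the authors counted reads on shared bases is not given in the sources used here.

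Paralogs with tissue-specific forms were expressed unequally. The widely expressed COX6B1 was 3951 times higher per kb than its testis form COX6B2 (0.982 per kb), COX7A2 was 255 times higher than the muscle form COX7A1 (3.85), and NDUFA4, a subunit of complex IV despite its name, was 81.6 times higher than NDUFA4L2 (10.7), a paralog known as a hypoxia-responsive gene. COX6B2 and COX7A1 did not reach the filter, so the ratios over them are rough. COX6B2 also shares 30.9% of its exon bases with another gene on the same strand. COX7B exceeded its testis paralog COX7B2 by a ratio of 9.03 per kb. COX7A2 was 2.54 times COX7A2L, a factor in supercomplex assembly, per kb, at gene lengths of 1922 and 5605 bases. In normalised counts COX7A2L was the higher, with means of 2286 in vector and 2055 under the nPD-L1 label against 2000 and 1775. COX4I1, COX6A1 and COX8A stood at 1405, 1186 and 5899 per kb. COX4I2, COX6A2 and COX8C were not analysed here. UQCRH, the hinge protein of complex III, was 35.4 times higher per kb than UQCRHL, a near-identical copy whose reads may be divided with it, so the value of UQCRHL is uncertain.

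No respiratory chain gene passed the test between the groups. Of 76 members tested, 0 were higher and 0 lower under the nPD-L1 label at an adjusted p under 0.05 with limma, where 4.04% of all genes tested were called higher and 0.922% lower. At an unadjusted p under 0.05, 0 members were higher (9.53% of all genes) and 1 was lower (4.71% of all genes). edgeR and DESeq2 on reads recovered from the values called 5.03% and 6.37% of all genes in either direction and 0 members at an adjusted p. At an unadjusted p under 0.05 each had 0 members higher and 1 lower. Of all genes, edgeR had 9.71% higher and 4.46% lower, and DESeq2 had 9.14% and 4.32%. The standard errors of the members' log2 fold changes had a median of 0.13 for mitochondrial genes (0.12 to 0.23) and 0.15 for nuclear genes (0.09 to 0.34), which is of the size of the differences themselves.

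Most fold changes lay on one side of 0. The median log2 fold change of the libraries labelled nPD-L1 over vector was -0.13 for the 13 mitochondrial members (range -0.19 to 0.20, 11 below 0) and -0.15 for the 63 nuclear members (range -0.47 to 0.24, 60 below 0), beside -0.02 for all genes tested. The median of the mitochondrial members exceeded that of the nuclear members by 0.03, and the SD of this difference among replicates was 0.30. By complex, the nuclear medians were -0.16 in complex I, -0.09 in complex II, -0.17 in complex III and -0.14 in complex IV, and the mitochondrial medians -0.13 in complex I, -0.18 in complex IV and -0.10 in complex V, with MT-CYB of complex III at -0.09.

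**Figure D2:**
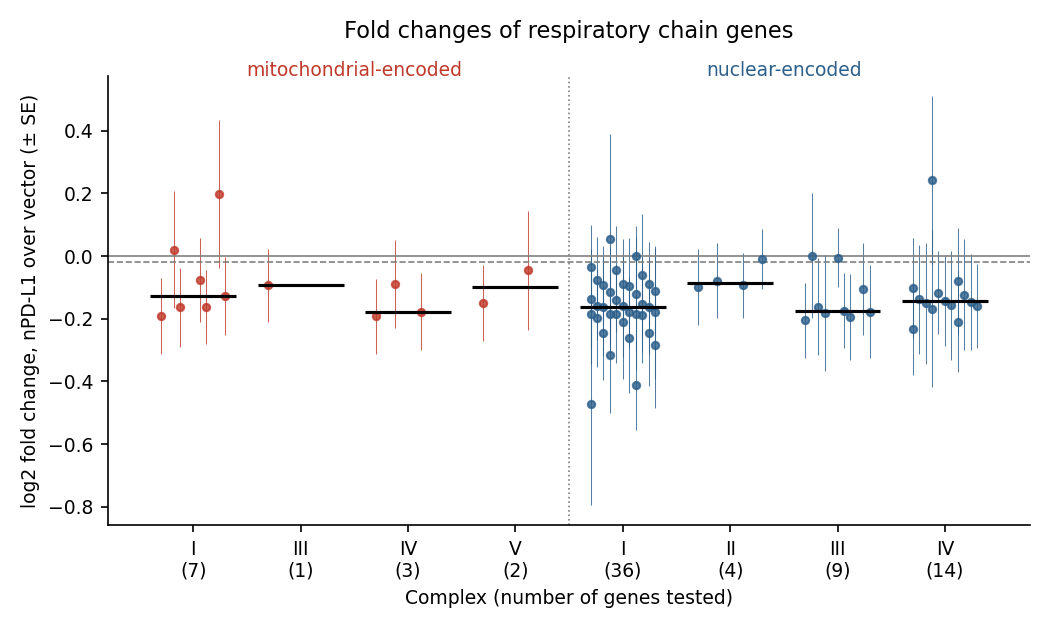
log2 fold change of the libraries labelled nPD-L1 over vector for 76 tested respiratory chain genes, by complex and genome of origin; points are genes with SE bars, black bars medians, the solid grey line 0 and the dashed line the median of all genes tested (-0.02). Most points lie between -0.3 and 0, and many error bars reach 0.

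The nuclear shift depended on 1 library. Vector replicate 2 had the highest value of all 6 libraries for 60 of 63 nuclear members, where it was highest for 4444 of the 15076 genes tested. Its nuclear members stood at a median of 0.50 log2 units above the mean of the other 5 libraries, while all genes stood at 0.01 and the mitochondrial members at -0.05. Without vector replicate 2 the nuclear median was 0.02, with 39 members above 0 and 24 below, and the mitochondrial median was -0.18, with 13 of 13 below 0 (all genes -0.01). The mitochondrial median then lay below the nuclear one, by -0.20 on the log2 scale. That library was singled out after its values had been seen. The mitochondrial median rested on other libraries: it was -0.03 without nPD-L1 replicate 1 and -0.22 without nPD-L1 replicate 3. The nuclear median was -0.26 without vector replicate 3. Without vector replicate 2, limma again called 0 members at an adjusted p, where 791 of 14854 genes were higher and 242 lower. At an unadjusted p under 0.05 it had 0 members higher (10.4% of all genes) and 1 lower (6.58%).

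**Figure D3:**
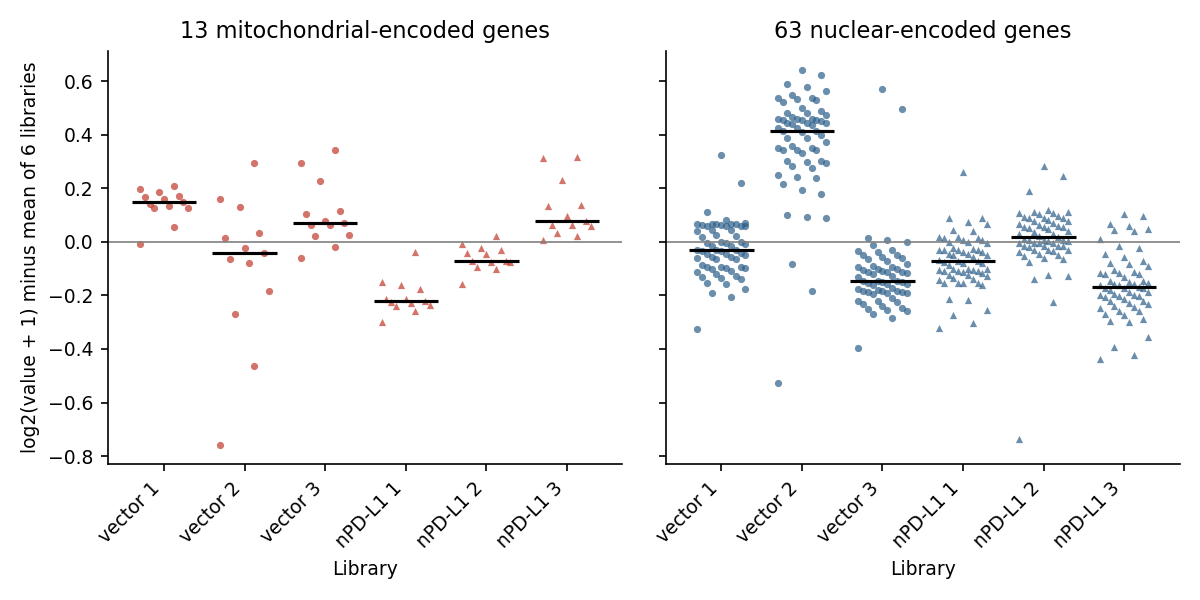
Deviation of log2(value + 1) from the mean of 6 libraries for each tested gene, by library, in mitochondrial-encoded genes (left) and nuclear-encoded genes (right); circles are vector and triangles libraries labelled nPD-L1, black bars medians. Nuclear genes stand high in vector replicate 2 (median 0.41), and mitochondrial genes stand low in nPD-L1 replicate 1 (median -0.22).

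The excess in vector replicate 2 was smallest in complex II and smaller in longer genes. It had a median of 0.54 in complex IV, 0.50 in complex I and complex III, and 0.25 in complex II, for nuclear members on the log2 scale. Short genes stood high in this library as a whole: with protein-coding genes split into 3 equal groups by gene length, the shortest had a median of 0.21, the middle -0.01 and the longest -0.19. Nuclear members exceeded that in each of the 3, at 0.53, 0.45 and 0.30. The 3 groups held 58, 10 and 8 members, with the 13 mitochondrial ones all in the first. Gene length is again that of all annotated exons merged, and the length of the expressed mRNA was not analysed. In complex II, SDHC and SDHA have a large gene length (14160 and 8383 bases) and had an excess of 0.12 and 0.21. SDHB and SDHD have a smaller one (2462 and 2838 bases) and had 0.29 and 0.33, so complex and gene length are mixed here. The part of gene length in the excess was not tested beyond these values.

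Summed over genes, mitochondrial mRNAs made up 5.10%, 4.25% and 4.85% of all normalised reads in vector replicates 1 to 3 and 3.90%, 4.38% and 4.99% under the nPD-L1 label (4.74% ± 0.436 against 4.42% ± 0.543, SD, n = 3 each). The groups overlapped, with the lowest and the second highest share both in libraries labelled nPD-L1. The nuclear members together took 0.604%, 0.761% and 0.561% in vector and 0.583%, 0.615% and 0.554% under the nPD-L1 label, and only vector replicate 2 stood apart. The ratio of mitochondrial to nuclear reads was 8.45, 5.59 and 8.65 in vector and 6.70, 7.12 and 9.0 under the nPD-L1 label (7.56 ± 1.71 against 7.60 ± 1.22). Without vector replicate 2 the vector mean of this ratio was 8.55.

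Of the 13 mitochondrial mRNAs, MT-ND4L, which encodes a small membrane subunit of complex I, had the largest standard error. Its normalised counts were 11325, 5955 and 12341 in vector and 9814, 10225 and 12509 under the nPD-L1 label. Vector replicate 2 was far below the other 5 libraries, and the groups overlapped (log2 fold change 0.20 ± 0.24, adjusted p = 0.758, limma; -0.13 without vector replicate 2). MT-ND5, a proton-pumping subunit of complex I, read 41636, 26165 and 42171 in vector and 32251, 35060 and 42333 under the nPD-L1 label. The same vector library was again lowest (log2 fold change 0.02; -0.21 without it). Together these 2 mRNAs made up 3.84% of mitochondrial mRNA reads in vector replicate 2 and 5.53% to 6.14% in the other libraries.

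In contrast, vector replicate 2 was the highest library for MT-ND3 and MT-CO2. MT-ND3, a complex I subunit, read 15089, 17841 and 13935 in vector and 12476, 13829 and 14589 under the nPD-L1 label (log2 fold change -0.19, and -0.09 without vector replicate 2). MT-CO2, which takes electrons from cytochrome c, read 123184, 125995 and 111332 in vector and 96607, 107046 and 115556 under the nPD-L1 label (log2 fold change -0.18). In both genes the groups overlapped.

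Few members had groups that did not overlap. 3 members lay lower in every library labelled nPD-L1 than in every vector library (8.54% of all genes tested did) and 1 lay higher (12% of all genes). MT-CO3, a core subunit of complex IV, was the mitochondrial one among them, with 138867, 137697 and 127908 in vector and 108651, 118076 and 127804 under the nPD-L1 label. The groups were separated by 0.081% of the lowest vector value (log2 fold change -0.19 ± 0.12, adjusted p = 0.548, limma).

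MT-CO1, the catalytic subunit of complex IV, read 252892, 216082 and 238481 in vector and 190690, 227188 and 250241 under the nPD-L1 label (log2 fold change -0.09). MT-CYB, the cytochrome b of complex III, read 55024, 48265 and 53133 against 44670, 49582 and 52546 (log2 fold change -0.09). MT-ATP6 of the ATP synthase read 82334, 71182 and 75553 against 62416, 68788 and 75544 (log2 fold change -0.15). In each of these the lowest library was nPD-L1 replicate 1, and the groups overlapped.

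nPD-L1 replicate 1 was the lowest of the 6 libraries for 9 of the 13 mitochondrial mRNAs, and vector replicate 2 was lowest for the other 4. Among the libraries labelled nPD-L1, replicate 1 was lowest and replicate 3 highest for 13 of 13 mitochondrial members and for 5 of 63 nuclear members. Mitochondrial mRNAs thus had the same order across the libraries labelled nPD-L1. In the vector group they did not, since replicate 2 was highest for MT-ND3 and MT-CO2 and lowest for MT-ND4L and MT-ND5. The lowest nPD-L1 library for mitochondrial mRNAs was not the lowest for the nuclear members, which was nPD-L1 replicate 3 for 34 of 63.

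**Figure D4:**
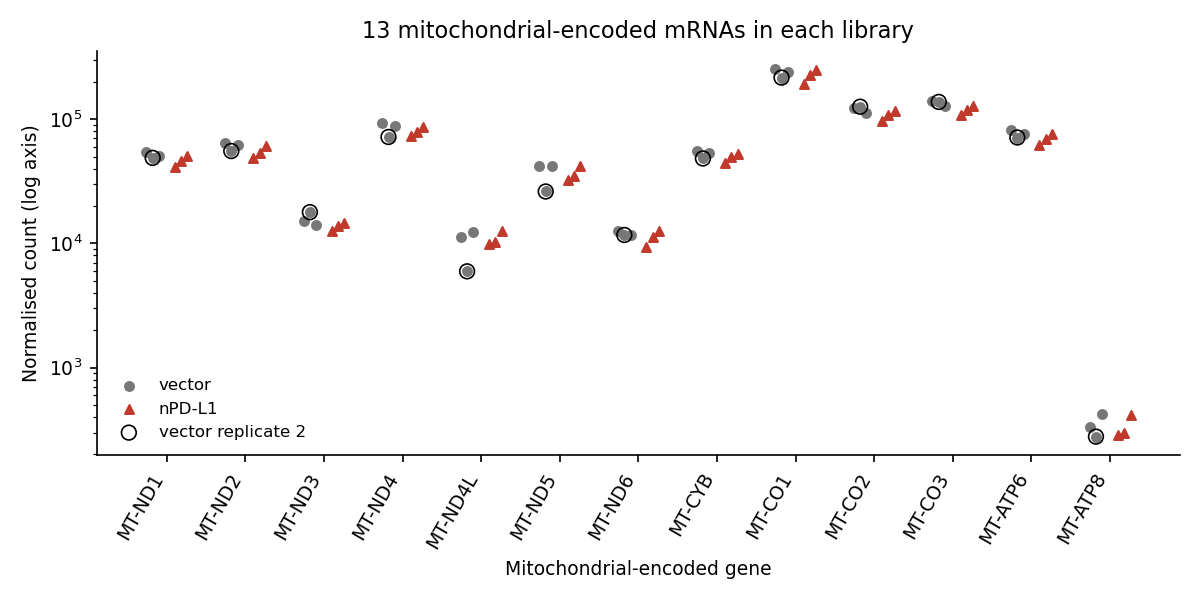
Normalised counts of the 13 mitochondrial-encoded mRNAs in each library on a log axis; grey circles are vector, red triangles libraries labelled nPD-L1, in replicate order, and open rings mark vector replicate 2. The groups overlap for every gene except MT-CO3, and vector replicate 2 is far below the others for MT-ND4L (5955) and MT-ND5 (26165).

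The other complex I mRNAs of the mitochondrial genome had log2 fold changes of -0.16 for MT-ND1, -0.16 for MT-ND2, -0.08 for MT-ND4 and -0.13 for MT-ND6. MT-ND4 read 93600, 71904 and 87790 in vector and 73677, 79216 and 86099 under the nPD-L1 label. MT-ND6, which is read from the opposite strand, held 12561, 11684 and 11643 against 9280, 11198 and 12597, so that both the lowest and the highest value fell in libraries labelled nPD-L1. MT-ATP8 read 333, 278 and 425 against 286, 300 and 417 (log2 fold change -0.05 ± 0.19).

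Among nuclear members of complex I, NDUFA11, an accessory subunit of the membrane arm, had the smallest p value. It read 305, 342 and 264 in vector and 216, 224 and 241 under the nPD-L1 label. Every vector library was above every library labelled nPD-L1 (log2 fold change -0.41 ± 0.14, unadjusted p = 0.016, adjusted p = 0.181, limma), and 9.65% of its exon bases are shared with another gene on the same strand. Without vector replicate 2 the log2 fold change was -0.32 (adjusted p = 0.269, limma). The lowest fold change of complex I belonged to NDUFA13, also known as GRIM-19, with 45.4, 31.6 and 54.0 in vector and 35.3, 21.2 and 37.6 under the nPD-L1 label (log2 fold change -0.47 ± 0.32, adjusted p = 0.586, limma). It was -0.22 without nPD-L1 replicate 2, -0.31 without vector replicate 3 and -0.68 without vector replicate 2. The highest belonged to NDUFV2, an iron-sulfur subunit, with 30.3, 21.5 and 44.7 against 25.2, 38.4 and 33.8 (log2 fold change 0.05 ± 0.34). Both rest on low values, and their groups overlapped.

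Vector replicate 2 was the highest library for 34 of the 36 tested nuclear members of complex I. NDUFS1, the largest subunit of the electron input module, was among the steadiest, at 2018, 2305 and 2172 in vector and 2055, 2203 and 2227 under the nPD-L1 label (log2 fold change 0.00 ± 0.10). NDUFB10, an accessory subunit of the membrane arm, read 1728, 2483 and 1497 against 1719, 1641 and 1326, and its log2 fold change went from -0.26 to -0.05 when vector replicate 2 was left out. Without that library, 20 of these 36 were above 0 and 16 below, with a median of 0.01. These 2 genes were chosen as examples after their values had been seen.

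Complex II, which has no mitochondrial-encoded subunit, had the nuclear median closest to 0. SDHC, a membrane anchor, read 2222, 2352 and 2044 in vector and 2203, 2203 and 2160 under the nPD-L1 label (log2 fold change -0.01 ± 0.10, the highest of the 4). SDHB, the iron-sulfur subunit whose promoter is printed above, read 2005, 2272 and 1739 against 1950, 1965 and 1677 (log2 fold change -0.10 ± 0.12, the lowest of the 4). SDHA and SDHD lay between them at -0.09 and -0.08. The groups overlapped for all 4 genes, and vector replicate 2 was the highest library for each.

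In complex III, UQCR11 had the lowest fold change, with 455, 516 and 430 in vector and 398, 424 and 391 under the nPD-L1 label. The groups did not overlap (log2 fold change -0.21 ± 0.12, adjusted p = 0.515, limma; -0.13 without vector replicate 2). UQCRHL was at the other end, with 149, 180 and 108 against 147, 138 and 144 (log2 fold change 0.00 ± 0.20). UQCRC2, a core subunit, read 2668, 2918 and 2677 against 2774, 2854 and 2600 (log2 fold change -0.01 ± 0.09), and the Rieske iron-sulfur protein gene UQCRFS1 read 5495, 7374 and 5114 against 5380, 5292 and 4853, again with vector replicate 2 highest. The latter 2 were added after their values had been seen.

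In complex IV, COX8A had the lowest fold change. It read 3091, 4015 and 2646 in vector and 2750, 2978 and 2466 under the nPD-L1 label (log2 fold change -0.23 ± 0.15, adjusted p = 0.555, limma; -0.07 without vector replicate 2). NDUFA4L2 was the only member whose groups did not overlap in the upward direction, with 27.3, 28.2 and 27.0 in vector and 36.1, 31.4 and 30.9 under the nPD-L1 label (log2 fold change 0.24 ± 0.27, adjusted p = 0.742, limma). Its paralog NDUFA4 read 2954, 3925 and 2849 against 2913, 3255 and 2734, and the groups overlapped (log2 fold change -0.12 ± 0.13).

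The other named subunits of complex IV followed the same pattern across libraries. COX4I1, which binds the catalytic core early in assembly, read 6564, 9263 and 5982 against 6520, 6675 and 5406 (log2 fold change -0.21, and -0.02 without vector replicate 2). COX6B1, on the intermembrane side, read 3496, 5122 and 2995 against 3588, 3580 and 3011 (-0.16, and 0.06 without it). COX7B2 read 57.5, 91.5 and 66.5 against 52.9, 78.9 and 58.8. For COX6A1, COX7A2, COX7A2L and COX7B the log2 fold changes were -0.15, -0.14, -0.14 and -0.08, and each turned positive without vector replicate 2, at 0.01, 0.09, 0.01 and 0.14.

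**Figure D5:**
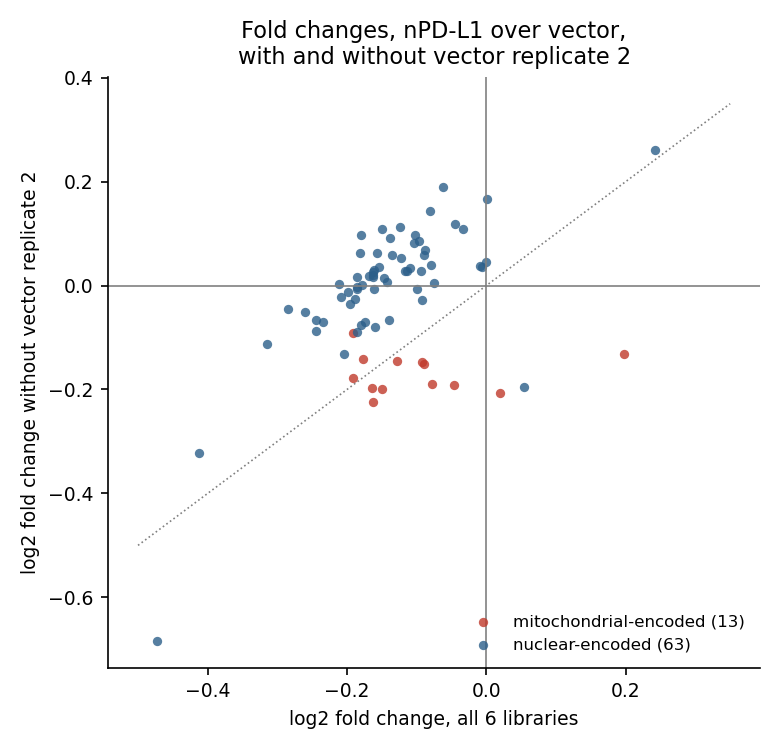
log2 fold change of the libraries labelled nPD-L1 over vector for each tested gene with all 6 libraries (horizontal) and without vector replicate 2 (vertical); red points are 13 mitochondrial-encoded and blue points 63 nuclear-encoded genes, and the dotted line marks equal values. Blue points sit mostly above the dotted line and around 0 on the vertical axis (median 0.02), and 13 of 13 red points lie below 0 (median -0.18).

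Lists of related mitochondrial genes gave the background of the respiratory chain. The nuclear-encoded ATP synthase subunits, which complete complex V with MT-ATP6 and MT-ATP8, had 0 of 19 tested genes called, a median log2 fold change of -0.12 (0.01 without vector replicate 2), and vector replicate 2 as the highest library for 18 of 19. Of 49 assembly factors 0 were called (median -0.13), as were 0 of 17 genes for cytochrome c and coenzyme Q synthesis (-0.07). The mitochondrial ribosome, which translates the products of the 13 mitochondrial genes, had 0 of 49 large-subunit genes called (-0.18) and 0 of 28 small-subunit genes (-0.15). Vector replicate 2 was highest for 44 and 25 of these. Without it the medians were -0.06 for assembly factors, 0.01 for carriers and coenzyme Q synthesis, and -0.09 and -0.07 for the large and small ribosomal subunits. These counts are from limma at an adjusted p, and edgeR and DESeq2 also called 0 genes of these 5 lists. At an unadjusted p under 0.05, 0 genes of each list were higher, and 0 ATP synthase genes, 3 assembly factors, 1 gene for electron carriers or coenzyme Q and 4 genes of each ribosomal subunit were lower (4.71% of all genes were).

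Genes acting on mitochondrial DNA and RNA did not pass the test with limma either. Of 19 genes for transcription and maintenance of mitochondrial DNA 0 were called (median log2 fold change -0.07), and 0 of 20 genes for processing and stability of mitochondrial RNA (-0.06), by limma at an adjusted p. At an unadjusted p the first list had 1 gene higher and 2 lower and the second 0 (9.53% of all genes were higher and 4.71% lower). DESeq2, which called 6.37% of all genes, called 1 gene of the first list, TK2, and edgeR, which called 5.03%, called 0. TK2 was higher under the nPD-L1 label, at 450, 480 and 513 against 391, 348 and 328 in vector (log2 fold change 0.44 ± 0.12, adjusted p = 0.0832, limma). TFAM, which packages mitochondrial DNA and starts its transcription, read 2307, 2132 and 2312 in vector and 2156, 1951 and 2198 under the nPD-L1 label (log2 fold change -0.10 ± 0.10, adjusted p = 0.711, limma). POLRMT, the mitochondrial RNA polymerase, read 2446, 2051 and 2191 against 2428, 2115 and 1987 (-0.04 ± 0.11, adjusted p = 0.915, limma). The groups overlapped for both genes.

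Among 12 nuclear regulators of mitochondrial genes, 2 rose and 0 fell, where 4.04% of all genes tested were called higher and 0.922% lower by limma. TFEB, a factor best known for lysosomal gene expression, read 53.5, 40.7 and 43.6 in vector and 209, 227 and 188 under the nPD-L1 label, far above every vector library (log2 fold change 2.16 ± 0.19, adjusted p = 6.42e-05, limma). PPARGC1B, a coactivator of mitochondrial biogenesis, read 166, 146 and 274 against 348, 359 and 364, with no overlap (log2 fold change 0.92 ± 0.21, adjusted p = 0.0310, limma). The call of PPARGC1B was lost without vector replicate 1 (adjusted p = 0.156, limma) and without nPD-L1 replicate 1, 2 or 3 (0.132, 0.106 and 0.145). NRF1 read 351, 366 and 296 against 441, 388 and 423, with no overlap, but did not pass (log2 fold change 0.31 ± 0.13, adjusted p = 0.307, limma). GABPA, ESRRA and YY1 had log2 fold changes of 0.00, -0.06 and 0.12, none of which passed, and PPARGC1A was not analysed here.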

How the data were processed

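RNA was isolated with TRIzol and libraries were made with the NEBNext Ultra kit; sequencing and read processing were done by a company. Per the labels, the processing tools were CASAVA and HISAT2 (version 2.0.5) with the build hg38; the read counter is not given in the sources used here. The deposited values are a signal made by the authors, read counts per gene after division by a library size factor, and 100% of the nonzero values in each library were whole multiples of 1 step within 0.001, so whole reads were recovered. Columns of the authors' own comparison (fold change, p and adjusted p) were not used.

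limma (version 3.58.1, R 4.3.3) was fitted on log2(value + 1), with trend and robust moderation, to 15076 genes (value of 10 or more in 3 or more libraries), with Benjamini-Hochberg adjustment over all of them. Fold changes on this scale understate those of low genes. edgeR (4.0.16) and DESeq2 (1.42.0) were run on the recovered reads of all 6 libraries. Other scalings, filters, pseudocounts and a replicate block were tried, and each library was left out in turn.

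Named were all mitochondrial members, nuclear members called (0), the highest and lowest nuclear fold change in each of complexes I to IV, paralog sets, the 5 highest levels per kb, called genes of related lists, TFAM, POLRMT, NRF1, PPARGC1A and CD274; cell type markers were named from their list. Any other gene named, marked or not, was chosen after its values were seen. The members and lists were chosen with earlier results of these data known. Python 3.11.15 was used for annotation and sequences.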

Additional observations from a re-analysis of the deposited data

How the results depend on the processing

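With all alternatives run, 0 members were called higher or lower at an adjusted p. At an unadjusted p under 0.05 the count of members lower was 1 with limma, edgeR and DESeq2 (4.71%, 4.46% and 4.32% of all genes were lower). It was 1 without vector replicate 2 (6.58% of all genes) and 7 with the replicate block (7.23%). Leaving out 1 library at a time gave 0 to 0 members called, mitochondrial medians of -0.22 to -0.03, nuclear medians of -0.26 to 0.018 and differences of mitochondrial minus nuclear medians of -0.20 to 0.12, against 0.03 with all libraries. The nuclear median turned positive without vector replicate 2 (0.018), and the difference turned negative without vector replicate 2 (-0.20) and without nPD-L1 replicate 3 (-0.11); the cause was not tested. Same-numbered libraries correlated in their deviations at -0.01, 0.23 and 0.13, and differently numbered ones at -0.22 to 0.08. Libraries numbered 2 and 3 correlated best with their own number and those numbered 1 did not, and the labels tie no number to a shared batch, so the numbers were not taken to pair the libraries. With the replicate block the medians were -0.13 and -0.15, 0 members were called, and 927 genes were higher and 258 lower in the whole table, against 609 and 139.

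Of 630 values for 35 named genes under the alternatives, 595 kept their direction and side of the threshold, 31 changed sign and 4 lost the call. Outside the libraries left out, MT-ND5 was -0.006 with upper-quartile factors and -0.003 with DESeq2, SDHC was 0.011 when libraries were scaled to their non-mitochondrial total, and UQCRHL was -0.025 with upper-quartile factors, -0.001 with a pseudocount of 10, -0.015 with edgeR and -0.026 with DESeq2. Over the libraries left out, log2 fold changes ran from -0.19 to 0.001 for MT-ND4, -0.13 to 0.39 for MT-ND4L, -0.21 to 0.14 for MT-ND5, -0.18 to 0.019 for MT-CO1, -0.21 to 0.11 for MT-ATP8, -0.20 to 0.32 for NDUFV2, -0.063 to 0.038 for SDHC, -0.20 to 0.17 for UQCRHL, -0.32 to 0.063 for COX6B1, -0.30 to 0.015 for COX6A1, -0.26 to 0.007 for COX7A2L, -0.27 to 0.091 for COX7A2, -0.20 to 0.029 for NDUFA4, -0.21 to 0.14 for COX7B, -0.33 to 0.018 for COX7B2 and -0.12 to 0.033 for POLRMT. Values of these genes lie within about 1 standard error of 0. Depth limits mainly the rarest members, such as NDUFA13, NDUFV2, NDUFA4L2, COX7B2 and the 3 members below the filter.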

Other observations

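The other transcripts of the mitochondrial genome showed 0 calls with limma, at an adjusted or an unadjusted p under 0.05. The 12S rRNA MT-RNR1 read 13423, 14984 and 12101 in vector and 13536, 12968 and 14733 under the nPD-L1 label, and the 16S rRNA MT-RNR2 read 121082, 123333 and 107374 against 111085, 121267 and 126623, with log2 fold changes of 0.03 each. Of 22 tRNA rows, 19 were tested, with a median log2 fold change of -0.06, 9 above 0 and 10 below.

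Nuclear copies of mitochondrial genes were also counted. Of 33 such pseudogene rows 5 passed the filter. MTATP6P1, a copy of MT-ATP6 on chromosome 1 (chr1:633696-634376), read 5064, 4049 and 4708 in vector and 3779, 4346 and 4582 under the nPD-L1 label, and MTND2P28 (chr1:629640-630683) read 4053, 2516 and 3925 against 3158, 3376 and 3804. Reads of such copies and of the mitochondrial genes cannot be told apart where the sequences are the same.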
